A study of Mus musculus with 10 samples.

Results

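The control livers of a mouse acetaminophen study were followed from 3 to 72 h after injection. Each of 10 Agilent arrays carried the RNA of a control liver, labelled with Cy3 (green), beside that of a treated liver, labelled with Cy5 (red). The control livers were taken as the Cy3 channel of all 10 arrays, which makes 10 of 20 liver samples. They came from female C57BL/6 mice aged 8 weeks that had been fasted for 24 h before an intraperitoneal injection; the protocol names phosphate-buffered saline as the injection of controls, and the sample labels name no agent. The Cy5 livers came from mice given acetaminophen at 350 mg/kg under the same fast, and they are used here only where their values stand beside a control result. Each of the 5 times (3, 8, 24, 48 and 72 h) had 2 control livers, mouse 2 and mouse 3 at every time but 48 h, which had mouse 1 and mouse 2. There was no liver of an unfasted or uninjected mouse, so 3 h served as the baseline. Whether food was returned after the injection, and at what clock hour the livers were taken, is not given in the sources used here.

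In a fasted liver, fatty acids released from fat tissue are oxidised in mitochondria and peroxisomes and turned into ketone bodies, under the nuclear receptor PPARα, while glucose is made from amino acids and glycerol. Feeding raises insulin and glucose, which act through the transcription factors SREBP-1c and ChREBP to favour fatty acid synthesis. A circadian clock runs in the same cells. Its activators BMAL1 and CLOCK bind E-box sequences and drive their own repressors, the PER and CRY proteins, together with many metabolic genes, and meal times can reset it in liver. Time after the fast, time of day and time after injection therefore change together in such a series.

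A level below is a background-corrected log2 Cy3 intensity after quantile scaling of the 10 control channels, so that a difference of 1 is a 2-fold change. Levels are printed with mouse 2 before mouse 3, and at 48 h with mouse 1 before mouse 2. Differences are given with the standard error of the limma fit over the 10 arrays, and adjusted p-values are from limma with Benjamini-Hochberg adjustment over all 23729 genes tested. "Rose" and "fell" are used where the adjusted p was below 0.05. Nothing in the labels says whether the mouse number links livers across times, so the p-values measure the spread between the 2 samples of a time, whatever its source.

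Across the 10 arrays, between 60.45% and 84.07% of the 43020 non-control spots were well above background in Cy3, and no Cy3 spot was saturated. Across the 23729 genes tested, arrays of the same time correlated at 0.974 to 0.989, and arrays of different times at 0.959 to 0.99. All 18 hepatocyte markers were well above background on all 10 arrays, with a median level of 15.29 to 16.29. Cyp2e1 among them fell at 24 h and Cps1 at 48 and 72 h, and no other passed. No Kupffer cell, lymphocyte, endothelial, bile duct, red cell or pancreas marker passed at any time (12, 14, 10, 5, 7 and 10 tested). The red cell markers had a median level of 13.19 in mouse 2 at 3 h and 12.51 in mouse 3 at 72 h, against 10.23 to 11.76 on the other 8 arrays. The arrays lay on 4 slides and were scanned on 2 days, and the 48 and 72 h arrays shared no slide with those of 3 h. The slides of 3 h were linked to those of 48 and 72 h through the arrays of 8 and 24 h alone, and counts with slide as a fixed block are given beside the main ones.

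Measured against 3 h, no gene passed at 8 h by limma, where 1175 genes had an unadjusted p below 0.05 and the smallest adjusted p was 0.409. At 24 h 459 genes passed (1.93% of those tested), 261 higher (1.1%) and 198 lower (0.834%). At 48 h 1352 genes passed (5.7%), 542 higher (2.28%) and 810 lower (3.41%). At 72 h 268 genes passed (1.13%), 117 higher (0.493%) and 151 lower (0.636%). Between 24 and 72 h, 242 genes passed (1.02%), 93 higher (0.392%) and 149 lower (0.628%) at 72 h. The means compared there hold no 3 h array, but the 3 h arrays enter the spread of the fit. A test over all 5 times together passed 602 genes (2.54%). The plot of called members by list shows how these counts fell over the groups described next.

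**Figure D1:**
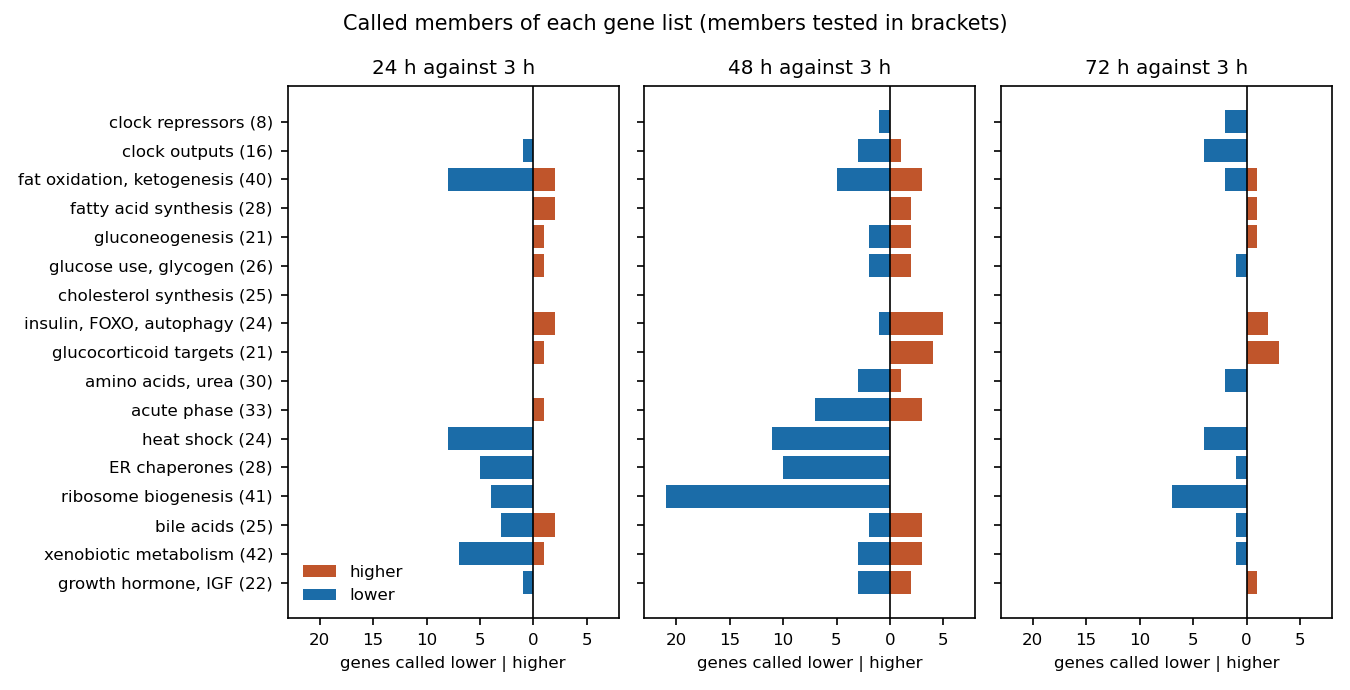
Number of members of each gene list that passed at 24, 48 and 72 h against 3 h (adjusted p below 0.05), with members higher than at 3 h drawn to the right and members lower drawn to the left of 0; the number of members tested stands in brackets. At 48 h the longest bar is that of ribosome biogenesis, with 21 of 41 members lower and none higher.

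These counts rested on every array of the baseline and on the scaling. Without mouse 2 of 3 h, 82 genes passed at 24 h, 0 at 48 h and 1 at 72 h; without mouse 3 of 3 h, 58, 0 and 2 passed. No list member named below passed at 48 or 72 h against 3 h without either 3 h array, here and below left out one at a time. Without mouse 2 or mouse 3 of 24 h, 110 and 182 genes passed at 24 h; without mouse 1 or mouse 2 of 48 h, 136 and 967 passed at 48 h; and without mouse 2 or mouse 3 of 72 h, 5 and 10 passed at 72 h. Scaling each array to its 75th percentile in place of quantile scaling left 2 genes at 24 h and none at 48 and 72 h. The median difference of all genes was then 0.40, 0.42 and 0.62 at the 3 times. With the mouse number as a block the counts were 697, 188 and 883, of which 427, 93 and 268 were also called without the block; at 48 h only mouse 2 informs that fit. With slide as a fixed block 182, 0 and 0 genes passed at the 3 times, and with scan day as a block 818, 2727 and 892.

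The calls of single genes were followed through the same settings. Of all 201 such calls, 200 were kept with scan day as a block and 141 with the mouse number as a block. Slide as a fixed block kept 44, 75th percentile scaling 3 and median scaling 0. Of 67 such calls at 48 h, 13 were kept with the mouse number as a block; among the genes described below these were Plin5, Cyp7a1, Actg1, Hsph1, Slc16a5, Trib3, Dnajb11, Bag3, Car3, Sprr1a and Cyp2c23, and every other 48 h call below was lost. Of 60 calls at 24 h, the block lost that of Nnmt. Without mouse 2 of 3 h 18 of these 60 were kept, and without mouse 3 of 3 h 17. Nat8b-ps, Lce1d, Slc16a5, Ppp1r3g, Syvn1, Slco1a1, Sprr1a, Cyp2c23, Gm8909 and Plin5 kept the 24 h call without either; Actg1 and G6pc kept it without mouse 2 of 3 h alone, Hsph1 and Trib3 without mouse 3 alone, and every other 24 h call below was lost in both.

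Fat oxidation and ketone synthesis genes fell mainly at 24 h. Of 40 tested, 8 fell and 2 rose at 24 h, 5 fell and 3 rose at 48 h, and 2 fell and 1 rose at 72 h. Over all genes tested 0.834%, 3.41% and 0.636% fell and 1.1%, 2.28% and 0.493% rose at these times, the background for this and each list that follows. The median difference of all 40 was -0.33, -0.19 and -0.06, beside medians over all genes of 0.00, 0.02 and 0.03. The sign at 72 h was positive under cyclic loess scaling (0.10). The deepest falls were in the Cyp4a genes, which encode microsomal fatty acid hydroxylases and are classical PPARα targets. Cyp4a10 had levels of 15.77 and 15.71 at 3 h, 13.98 and 14.18 at 8 h, 11.66 and 12.83 at 24 h, 14.30 and 13.69 at 48 h, and 13.83 and 14.65 at 72 h. Both 24 h livers lay below every other liver, and all livers after 3 h lay below both of 3 h. The fall at 24 h was 3.49 ± 0.41 on the log2 scale, or 11.3-fold (adjusted p = 0.009); that at 8 h, -1.66 ± 0.41, did not pass (adjusted p = 0.695). Cyp4a31 followed at -3.47 ± 0.38 at 24 h (adjusted p = 0.00731) and Cyp4a14 at -2.80 ± 0.37 (adjusted p = 0.0124). Probes of these near-identical genes can share signal, so they are not independent measurements.

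**Figure D2:**
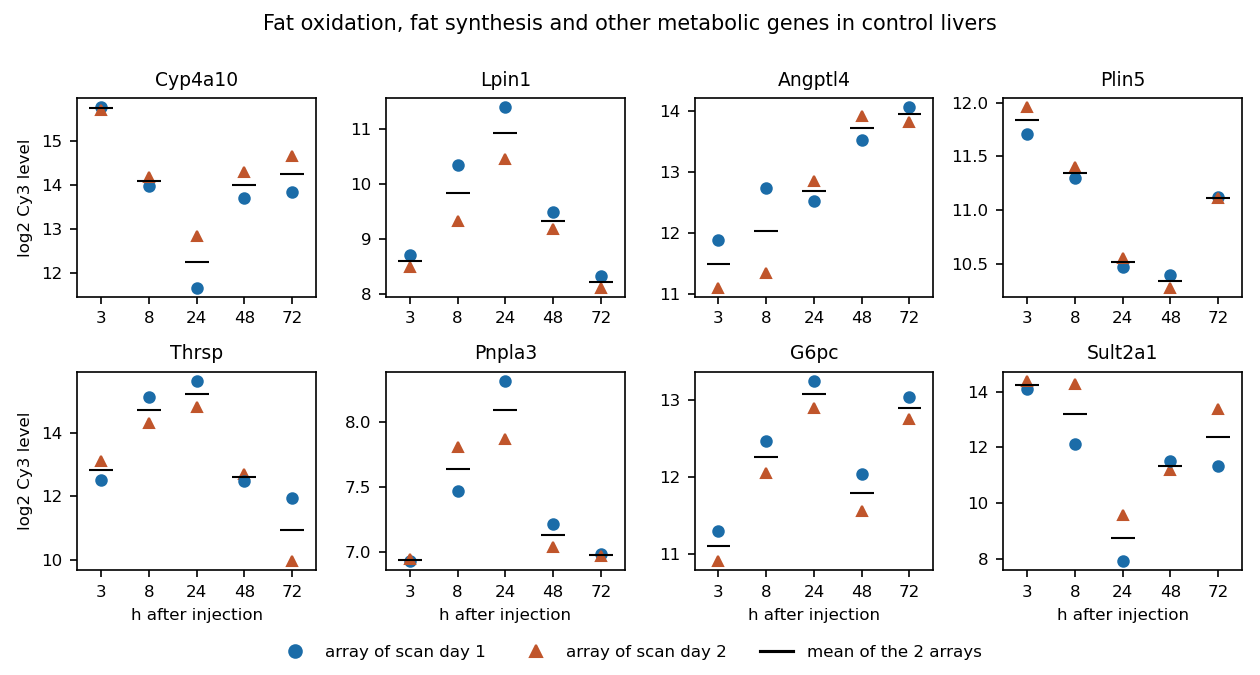
Background-corrected, quantile-scaled log2 Cy3 level of 8 metabolic genes in each control liver against hours after injection; circles are arrays of scan day 1, triangles arrays of scan day 2, and bars the mean of the 2 arrays, with times evenly spaced and a separate vertical scale for each gene. Cyp4a10 and Sult2a1 had their lowest means at 24 h, Thrsp and Pnpla3 their highest, and Angptl4 its highest at 48 and 72 h.

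Plin5, which coats lipid droplets and ties them to mitochondria, fell at all 3 later times. Its levels were 11.71 and 11.96 at 3 h, 10.47 and 10.56 at 24 h, 10.28 and 10.40 at 48 h and 11.12 and 11.11 at 72 h, with differences of -1.32 ± 0.12 (adjusted p = 0.00327), -1.50 ± 0.12 (0.00985) and -0.72 ± 0.12 (0.0436). No level at these times overlapped those of 3 h, which also held for 9719, 11856 and 10974 of all 23729 genes at 24, 48 and 72 h. At 24 h the fall also took in Cpt2, the inner mitochondrial carnitine transferase (-0.73 ± 0.13, adjusted p = 0.037), Slc25a20, the carnitine carrier (-0.99 ± 0.18, 0.044), Acadm, which starts the oxidation of medium-chain fatty acids (-0.95 ± 0.16, 0.0318), and the acyl-CoA thioesterase Acot4 (-0.90 ± 0.11, 0.009). Both risers at 24 h were lipins, phosphatidate phosphatases that also act as coregulators in the nucleus. Lpin1 had 8.70 and 8.48 at 3 h, 10.34 and 9.32 at 8 h, 11.40 and 10.46 at 24 h, and 8.33 and 8.11 at 72 h, a rise of 2.34 ± 0.38 at 24 h (adjusted p = 0.0269). Lpin2 rose by 1.32 ± 0.16 (0.0105).

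Later, part of the programme stood above its 3 h level. Angptl4, a secreted inhibitor of lipoprotein lipase, had levels of 11.89 and 11.10 at 3 h, 13.92 and 13.53 at 48 h and 14.07 and 13.83 at 72 h. It rose by 2.23 ± 0.44 at 48 h (adjusted p = 0.0316) and by 2.46 ± 0.44 at 72 h (0.0494), and its 4 livers of these times lay above the 6 earlier ones. Ppara itself rose at 48 h by 1.63 ± 0.24 (0.0194). The 72 h difference of Angptl4 was -0.29 on median scaling. With the repeat probes described further on left out, no member of the list was called higher at 72 h. Cpt2 was 0.86 ± 0.13 higher at 72 than at 24 h (0.0268), and -0.47 with 75th percentile scaling. Cpt1a, Fgf21 and Pdk4, other well-known fasting genes, did not pass at any time; Fgf21 ranged from 7.17 to 7.95. With the mouse number as a block, 8 members fell and 2 rose at 24 h, 1 fell at 48 h and 5 fell and 2 rose at 72 h; the Cyp4a10, Cyp4a31 and Cyp4a14 calls at 48 h were lost there (adjusted p = 0.0913, 0.0898 and 0.0732). Without mouse 2 or mouse 3 of 3 h, 1 member fell at 24 h.

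Few genes of fatty acid synthesis passed. At 8 and 24 h alike, 24 of 28 tested had a positive difference, with a median of 0.41 at 8 h and 0.66 at 24 h, the latter -0.23 where arrays were scaled on the median. Called members were 2 higher at 24 h, 2 higher at 48 h and 1 higher at 72 h, with none lower. With the repeat probes described further on left out, none was called at 72 h. Pnpla3, a lipid droplet acylhydrolase induced by feeding, was not well above background on either 3 h array (6.93 and 6.95) and had 8.32 and 7.87 at 24 h, a rise of 1.16 ± 0.17 (adjusted p = 0.0216), or at least 2.12-fold. Pgd, of the pentose phosphate pathway that supplies NADPH, rose by 1.16 ± 0.18 (0.0234). Mlxipl, which encodes ChREBP, had 12.89 and 12.39 at 3 h, a mean of 14.24 at 48 h, and 13.93 and 14.06 at 72 h; it rose by 1.60 ± 0.24 and 1.36 ± 0.24 (0.0192 and 0.0471), and the sign at 72 h turned with 75th percentile scaling (-0.48) and median scaling (-1.49). Without either 3 h array no member passed at 24 h.

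Thrsp, a thyroid hormone and carbohydrate responsive gene of lipogenic tissue, had the widest course of the list. Its levels were 12.53 and 13.11 at 3 h, 15.14 and 14.33 at 8 h, 15.65 and 14.82 at 24 h, 12.72 and 12.50 at 48 h, and 11.94 and 9.95 at 72 h. The 4 livers of 8 and 24 h lay above the other 6, yet the difference from 3 h did not pass at 24 h (2.41 ± 0.61, adjusted p = 0.107). Between 24 and 72 h it fell by 4.29 ± 0.61 (adjusted p = 0.0227), or 19.6-fold, and that adjusted p was 0.0544 without either 3 h array and 0.15 without mouse 2 of 24 h. Pnpla3 and Pgd fell with it over that interval, by 1.12 ± 0.17 (0.032) and 1.21 ± 0.18 (0.0267); the Pnpla3 call was lost with the mouse number as a block (0.0559). Acly, Fasn and Srebf1, the citrate lyase, the synthase and the SREBP-1 gene, showed 1.69 ± 0.40, 0.92 ± 0.39 and 0.95 ± 0.22 at 24 h and did not pass (0.0879, 0.351 and 0.0871). Of 25 genes of cholesterol synthesis and uptake, none passed in any comparison by limma, and their median difference was -0.26, -0.25 and -0.57 at 24, 48 and 72 h.

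Single genes of glucose handling passed. In gluconeogenesis 1 of 21 rose at 24 h, 2 rose and 2 fell at 48 h, and 1 rose at 72 h. G6pc, the glucose-6-phosphatase that releases free glucose, had 11.30 and 10.90 at 3 h, 12.47 and 12.05 at 8 h, 13.25 and 12.90 at 24 h, 11.56 and 12.03 at 48 h, and 13.04 and 12.75 at 72 h. It rose by 1.97 ± 0.24 at 24 h (adjusted p = 0.00997) and 1.79 ± 0.24 at 72 h (0.0247). On median scaling the 72 h difference was -0.98. Fbp1, fructose-1,6-bisphosphatase, fell at 48 h by 1.52 ± 0.27 (0.0262), a call lost with the mouse number as a block (0.132). Among glucose use and glycogen genes 1 of 26 rose at 24 h, 2 rose and 2 fell at 48 h and 1 fell at 72 h. Ppp1r3g, a glycogen-targeting subunit of protein phosphatase 1, had 6.87 and 7.36 at 3 h, 9.69 and 9.03 at 24 h and 8.44 and 8.52 at 48 h; the rise at 24 h was 2.24 ± 0.24 (0.00562). It was well above background on 1 of the 2 arrays of 3 h and on both of each later time. Gys2, liver glycogen synthase, rose at 48 h by 1.18 ± 0.19 (0.0213), a difference of -0.15 on median scaling. Ppp1r3g kept its 24 h call without either 3 h array (0.0468 and 0.0382).

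Targets of FOXO factors and of glucocorticoids, both active when insulin is low, gained members at 48 h. Of 24 insulin, FOXO and autophagy genes 2 rose at 24 h, 5 rose and 1 fell at 48 h, and 2 rose at 72 h. Trib3, a pseudokinase that binds AKT, had 8.76 and 8.93 at 3 h, 8.84 and 8.87 at 8 h, 10.43 and 10.23 at 24 h, 10.91 and 10.58 at 48 h, and 9.64 and 9.38 at 72 h. Its rise was 1.49 ± 0.15 at 24 h (adjusted p = 0.00545) and 1.90 ± 0.15 at 48 h (0.00985). Ulk1, the kinase that starts autophagy, rose by 1.21 ± 0.15, 1.35 ± 0.15 and 1.17 ± 0.15 at 24, 48 and 72 h (0.0109, 0.0153 and 0.0235), and Gabarapl1, of the autophagosome membrane, by 1.14 ± 0.19 at 72 h (0.0436). Both 72 h signs turned with 75th percentile scaling, to -0.41 and -0.55. Irs2, an insulin receptor substrate, rose at 48 h by 1.29 ± 0.25 (0.0315). Depp1, a FOXO target, rose by 2.53 ± 0.41 at 48 h (0.022) and 2.31 ± 0.41 at 72 h (0.0475). Of 21 glucocorticoid targets 1 rose at 24 h, 4 at 48 h and 3 at 72 h, with none lower; 1 of these, Fam107a, was read by a probe with a CA repeat, described further on. The metallothionein Mt2 had 12.34 and 12.07 at 3 h and 15.25 and 14.35 at 48 h, a rise of 2.60 ± 0.44 (0.0238). With the mouse number as a block the 48 h calls of Ulk1, Depp1 and Mt2 were lost (0.058, 0.0718 and 0.103).

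The clock repressors Ciart and Per2 and the clock-driven genes Noct and Usp2 fell in the 72 h livers. Being whole days after injection, 24, 48 and 72 h would share a clock hour if injections were given at one hour, while 3 and 8 h would not. Of the 19 core clock and clock output factors tested, none passed at 24 h, 1 was higher and 1 lower at 48 h, and 2 were lower at 72 h. Ciart, a repressor of the BMAL1 and CLOCK pair, carried 3 copies of the E-box CACGTG in the 250 bases before its start, and Per1, which encodes a core repressor, carried 1 E-box and the D-box TTATGCAA, the kind of site bound by the output factor DBP. Both windows are from RefSeq on GRCm38.p6, 5′ to 3′ on the gene's strand, with motifs in capitals: Ciart from chr3:95882229-95882478 on the minus strand, and Per1 from chr11:69098699-69098948 on the plus strand.
Ciart: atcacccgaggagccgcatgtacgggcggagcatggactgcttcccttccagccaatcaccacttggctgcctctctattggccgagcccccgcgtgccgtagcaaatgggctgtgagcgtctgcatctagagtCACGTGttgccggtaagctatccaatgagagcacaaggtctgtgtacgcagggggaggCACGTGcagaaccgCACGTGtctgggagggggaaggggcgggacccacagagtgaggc
Per1: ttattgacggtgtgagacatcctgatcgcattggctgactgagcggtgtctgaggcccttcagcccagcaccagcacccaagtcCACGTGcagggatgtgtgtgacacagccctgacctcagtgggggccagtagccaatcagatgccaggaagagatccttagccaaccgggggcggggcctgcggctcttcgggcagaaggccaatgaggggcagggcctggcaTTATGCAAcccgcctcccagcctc

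Between the E-boxes of Ciart and its start lay 110, 52 and 38 bases. Between the E-box and the D-box of Per1 and its start lay 160 and 16 bases. Searched on both strands, CACGTG stood in 5 of the 16 core clock genes that had a window (Per1, Cry1, Ciart, Bhlhe41 and Tef), against 6.86% of 27025 genes, and TTATGNAA in 2 of 16 (Per1 and Per3), against 3.63%. Such a match describes the letters of the window and not the binding of a factor.

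Ciart fell at both late times. It had levels of 8.03 and 7.90 at 3 h, 8.07 and 7.78 at 8 h, 8.28 and 8.39 at 24 h, 7.17 and 7.39 at 48 h, and 6.77 and 6.83 at 72 h. Both 72 h livers lay below both of 48 h, which lay below the other 6. It fell by 0.68 ± 0.14 at 48 h (adjusted p = 0.0332), by 1.17 ± 0.14 at 72 h (0.0211) and by 1.54 ± 0.14 from 24 to 72 h (0.00355), and it was the 1 core member past the test over all times. At 72 h it was well above background on 1 of the 2 arrays. Per2 had 8.62 and 8.27 at 3 h, 8.20 and 7.85 at 24 h, 7.73 and 8.07 at 48 h, and 7.28 and 7.29 at 72 h, a fall of 1.16 ± 0.19 at 72 h (0.043). Per1, at 11.32 and 10.80 at 3 h, 11.29 and 11.51 at 24 h and 9.80 and 10.40 at 72 h, did not pass at 72 h against 3 h (-0.96 ± 0.23, 0.0892) or 24 h (-1.30 ± 0.23, 0.0558). Nr1d2, which encodes the repressor REV-ERBβ, rose at 48 h by 0.98 ± 0.22 (0.0462).

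**Figure D3:**
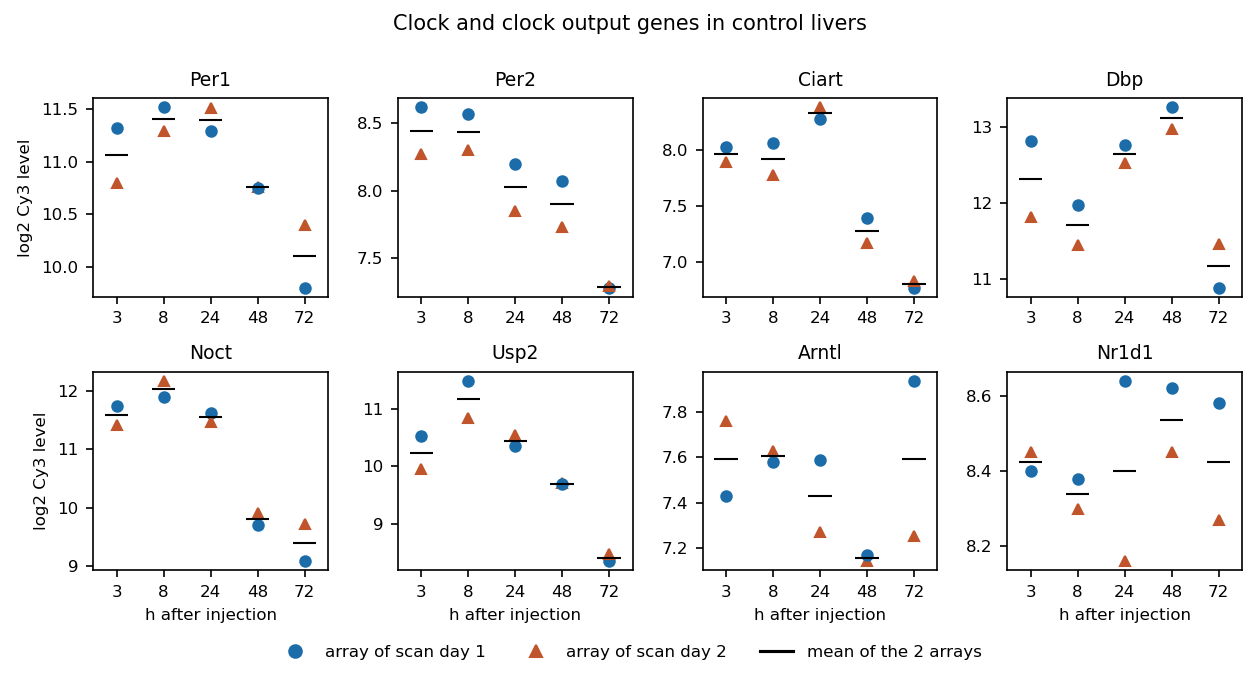
Background-corrected, quantile-scaled log2 Cy3 level of 8 clock and clock output genes in each control liver against hours after injection; circles are arrays of scan day 1, triangles arrays of scan day 2, bars the mean of the 2 arrays, and each gene has its own vertical scale. Ciart, Per2, Noct and Usp2 had their lowest means at 72 h, while Arntl and Nr1d1 showed no difference past the test.

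The activators Arntl (encoding BMAL1), Clock and Npas2 had differences between -0.45 and 0.11 after 8 h and none passed; Nr1d1 stayed between 8.16 and 8.64 on all arrays. Dbp, an output factor that binds D-boxes, had 12.82 and 11.82 at 3 h, 12.97 and 13.26 at 48 h and 10.89 and 11.46 at 72 h, and did not pass (-1.15 ± 0.35 at 72 h, 0.139). Among 16 further clock-driven genes 1 fell at 24 h, 3 fell and 1 rose at 48 h, and 4 fell at 72 h. Noct, a NADP(H) phosphatase with a strong daily rhythm in liver, had 11.75 and 11.42 at 3 h, 11.63 and 11.47 at 24 h, 9.91 and 9.71 at 48 h, and 9.08 and 9.72 at 72 h. It fell by 1.78 ± 0.22 at 48 h (0.0163), 2.19 ± 0.22 at 72 h (0.0211) and 2.15 ± 0.22 from 24 to 72 h (0.00707). Usp2, a deubiquitinase, had 10.53 and 9.95 at 3 h, 10.36 and 10.54 at 24 h, 9.71 and 9.69 at 48 h, and 8.35 and 8.47 at 72 h, a fall of 1.83 ± 0.24 at 72 h (0.0235). Rgs16, a regulator of G-protein signalling known to follow feeding and fasting, rose at 48 h alone by 2.80 ± 0.36 (0.0163), from 8.37 and 8.88 to 11.57 and 11.29. Alas1, the rate-limiting enzyme of heme synthesis, fell at 24 h by 1.53 ± 0.27 (0.0395) and at 48 h by 1.48 ± 0.27 (0.0281).

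With the mouse number as a block the 48 h calls of Ciart, Noct, Nr1d2, Rgs16 and Alas1 were lost (adjusted p = 0.132, 0.0636, 0.0938, 0.0719 and 0.129), and 3 repressors were lower at 72 h. With 1 of the 24 or 72 h arrays left out at a time, Ciart kept its fall from 24 to 72 h (adjusted p = 0.0227 to 0.033), Noct lost it without mouse 2 of 24 h (0.0612), and Usp2 lost it in each case (0.0596 to 0.073). In the treated livers the Cy5 differences at 72 h were -1.25 for Ciart and 1.31 for Usp2.

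Protein-folding genes fell after 3 h. Of 24 heat shock genes, falls were called for 8, 11 and 4 at 24, 48 and 72 h, and none rose; the median differences were -0.62, -0.75 and -0.58. Of 28 genes of endoplasmic reticulum chaperones and the unfolded protein response 5 fell at 24 h, 10 at 48 h and 1 at 72 h, again with none higher, and the medians were -0.43, -0.59 and -0.39. These medians kept their sign under each scaling tried. Under 75th percentile and median scaling the median of the hepatocyte markers was negative at these times as well, at -1.61 and -2.63 at 72 h. The sign under those scalings is therefore not particular to these lists. Hsph1, a nucleotide exchange factor for HSP70, had 11.57 and 11.09 at 3 h, 10.18 and 10.61 at 8 h, 9.72 and 9.59 at 24 h, 9.09 and 9.28 at 48 h, and 9.94 and 10.12 at 72 h. It fell by 1.68 ± 0.20, 2.14 ± 0.20 and 1.30 ± 0.20 at 24, 48 and 72 h (adjusted p = 0.00973, 0.0126 and 0.0368). Hspa8, the constitutive HSP70, had 16.25 and 16.18 at 3 h and 14.33 and 15.04 at 8 h, and fell by 1.42 ± 0.23 at 24 h (0.0267). Bag3, a co-chaperone of selective autophagy, fell at all 3 later times, most at 48 h (-1.50 ± 0.12, 0.00985).

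**Figure D4:**
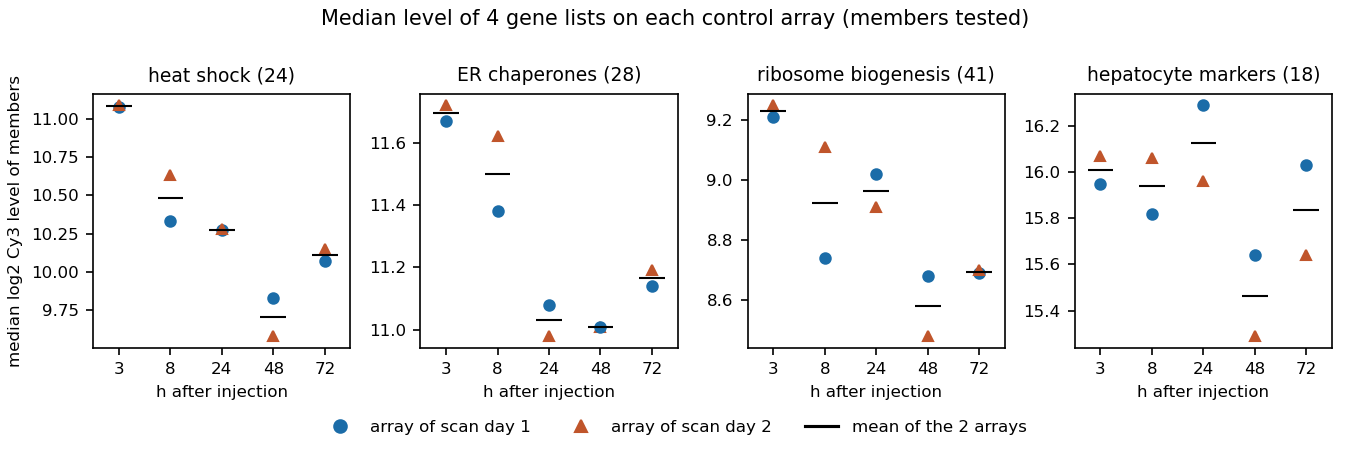
Median log2 Cy3 level of the tested members of 4 gene lists (number in brackets) on each control array against hours after injection; circles are arrays of scan day 1, triangles of scan day 2, bars the mean of the 2, with a separate vertical scale for each list. The 3 h arrays had the highest medians for heat shock, endoplasmic reticulum chaperone and ribosome biogenesis genes, while the hepatocyte markers were lowest at 48 h.

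In the endoplasmic reticulum, Creld2, a secreted disulfide isomerase-like protein, had 13.15 and 13.09 at 3 h, 11.62 and 12.45 at 8 h, 10.79 and 11.09 at 24 h, 11.34 and 11.28 at 48 h, and 11.67 and 11.88 at 72 h. It fell by 2.18 ± 0.25 at 24 h (adjusted p = 0.00789), or 4.54-fold, and by 1.81 ± 0.25 at 48 h (0.0178). Syvn1, the ubiquitin ligase of the degradation pathway, fell by 1.25 ± 0.13 (0.00608) and Dnajc3, an inhibitor of the kinase PERK, by 1.39 ± 0.18 (0.0122) at 24 h. Hspa5, the chaperone BiP, fell at 48 h by 1.43 ± 0.24 (0.0231), from 14.93 and 15.19 to 13.68 and 13.57. Dnajb11, a BiP partner, was the member lower at 72 h as well (-0.83 ± 0.13, 0.0368).

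The endoplasmic reticulum stress response element joins a CCAAT box to CCACG across a fixed spacer and is read by the factors of this pathway together with NF-Y. It is shown because several genes that fell carry it. CCAAT and CCACG 9 bases apart were searched on both strands of the 250 bases before the start. They stood in 9 of the 24 list members that had a window, counted whether or not they fell, against 0.13% of 27025 genes. The elements of 4 members that fell are given 5′ to 3′ from RefSeq on GRCm38.p6, with the fixed letters in capitals; their positions are chr15:88819520-88819538 for Creld2, chr19:6046532-6046550 for Syvn1, chr14:118937827-118937845 for Dnajc3 and chr2:34772025-34772043 for Hspa5, where the Creld2 element lies on the strand opposite to the gene.
Creld2: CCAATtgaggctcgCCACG
Syvn1: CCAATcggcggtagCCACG
Dnajc3: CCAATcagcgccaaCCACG
Hspa5: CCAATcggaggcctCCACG

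The other holders were Hsp90b1 (with 2 elements), Pdia6, Calr, Canx and Derl3. The heat shock element, searched as GAA, TTC and GAA each 2 bases apart, stood in 2 of 18 heat shock genes with a window, Hspe1 and Hspd1, against 0.514% of all. Neither count was tested, and the falls of members with and without an element were not compared.

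Genes that build ribosomes had more calls at 48 h than any other list in the plot of called members. Of 41 tested, 4, 21 and 7 fell at 24, 48 and 72 h, and none rose. The median differences of -0.29, -0.61 and -0.50 kept their sign under each scaling tried. Under 75th percentile and median scaling that sign was shared by the hepatocyte markers. Nop2, an rRNA methyltransferase, had 10.87 and 10.72 at 3 h, 9.98 and 9.91 at 24 h, 9.79 and 9.98 at 48 h and 9.94 and 9.91 at 72 h, and fell by 0.85 ± 0.11, 0.91 ± 0.11 and 0.88 ± 0.11 (adjusted p = 0.0123, 0.0163 and 0.0227). Tsr1, of small subunit maturation, fell by 1.13 ± 0.13 at 48 h (0.0163), and Gnl3, nucleostemin, by 1.07 ± 0.16 (0.0191). With the mouse number as a block 8, 1 and 13 biogenesis genes, 9, 2 and 6 heat shock genes and 7, 1 and 4 reticulum genes were lower at 24, 48 and 72 h. Without mouse 2 of 3 h no heat shock or biogenesis gene and 1 reticulum gene passed at 24 h; without mouse 3 of 3 h these counts were 1, 0 and 2. Of 28 cell cycle genes tested none passed by limma.

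In bile acid synthesis, the enzymes Cyp7a1 and Cyp8b1 fell. Cyp7a1, whose enzyme sets the rate of bile acid production, had levels of 11.75 and 11.79 at 3 h, 10.77 and 10.26 at 8 h, 10.32 and 9.91 at 24 h, 8.88 and 9.12 at 48 h, and 8.76 and 8.68 at 72 h. All livers after 3 h lay below both 3 h livers, and the differences were -1.66 ± 0.20, -2.77 ± 0.20 and -3.05 ± 0.20 at 24, 48 and 72 h (adjusted p = 0.00973, 0.00985 and 0.0031). Cyp8b1, which makes cholic acid, had 9.20 and 9.32 at 3 h and 7.26 to 8.13 on all later arrays, and fell by 1.72 ± 0.26 at 24 h (0.0224) and 1.59 ± 0.26 at 48 h (0.0231). In the whole list of 25, 2 rose and 3 fell at 24 h, 3 rose and 2 fell at 48 h, and 1 fell at 72 h. The risers included the organic anion uptake carrier Slco1a1, at 7.75 and 7.67 at 3 h, 10.28 and 10.12 at 24 h and 8.72 and 8.15 at 72 h (2.49 ± 0.21 at 24 h, 0.00321), and the sterol exporter Abcg5 (1.19 ± 0.22, 0.0445). The Cyp8b1 call at 48 h was lost with the mouse number as a block (0.0859), and Cyp7a1 had adjusted p-values of 0.0702 to 0.0929 in the 3 comparisons without either 3 h array.

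The deepest fall of the series at 24 h was in a sulfotransferase. Sult2a1, which sulfates bile acids and steroids, had 14.10 and 14.39 at 3 h, 12.12 and 14.29 at 8 h, 7.91 and 9.56 at 24 h, 11.19 and 11.50 at 48 h, and 11.32 and 13.39 at 72 h. It fell by 5.51 ± 0.88 at 24 h (adjusted p = 0.0257), or 45.6-fold, and its close relative Sult2a4 also fell (-5.01 ± 0.70, 0.0157), where 1 of the 2 arrays of 24 h was well above background. Without mouse 2 or mouse 3 of 3 h the adjusted p was 0.139 and 0.175 for Sult2a1, and 0.1 and 0.128 for Sult2a4. Sult2a6 fell at 48 h (-3.14 ± 0.68, 0.0408), a call lost with the mouse number as a block (0.15). The Sult2a genes are a near-identical family whose probes can share signal. In the treated livers the Cy5 difference of Sult2a1 was -6.79 at 24 h.

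Of 42 genes of xenobiotic metabolism, which include Cyp2e1 of the hepatocyte markers, 7 fell and 1 rose at 24 h, 3 fell and 3 rose at 48 h, and 1 fell at 72 h. Cyp2e1, which activates acetaminophen, had 16.82 and 16.91 at 3 h and 16.20 and 15.78 at 24 h (-0.88 ± 0.15, adjusted p = 0.0456), a call kept under 7 of 27 alternatives; its spot on mouse 1 of 48 h was left out as an outlier. Cyp2c37 fell at 24 h by 1.33 ± 0.18 (0.0137) and was 1.27 ± 0.18 higher at 72 than at 24 h (0.0218), and -0.34 on median scaling. Cyp2c23, an arachidonate epoxygenase, moved in both directions, with 11.85 and 12.10 at 3 h, 12.74 and 12.99 at 8 h, 10.05 and 10.14 at 24 h, 13.94 and 13.64 at 48 h, and 13.36 and 13.61 at 72 h. It fell by 1.88 ± 0.16 at 24 h (0.00321), rose by 1.82 ± 0.16 at 48 h (0.0112) and was 3.39 ± 0.16 higher at 72 than at 24 h (0.000217); the 72 h rise over 3 h, 1.51 ± 0.16 (0.0211), turned to -0.33 with 75th percentile scaling. Dio1, which activates thyroid hormone, had 12.17 and 11.47 at 3 h, 8.93 and 8.90 at 24 h and 11.31 and 11.56 at 72 h, a fall of 2.90 ± 0.38 at 24 h (0.0122) and a rise of 2.52 ± 0.38 from there to 72 h (0.0269).

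A few large falls lasted from 24 to 72 h outside these lists. Actg1, cytoplasmic gamma-actin, had 15.15 and 15.86 at 3 h, 14.45 and 14.85 at 8 h, 12.93 and 13.43 at 24 h, 12.53 and 13.15 at 48 h, and 12.57 and 12.48 at 72 h. It fell by 2.33 ± 0.30, 2.67 ± 0.30 and 2.98 ± 0.30 (adjusted p = 0.0122, 0.0153 and 0.0211), and its 4 other probes moved the same way at each of these times. The monocarboxylate carrier Slc16a5 fell by 1.85 ± 0.14, 1.83 ± 0.14 and 2.40 ± 0.14 (0.00263, 0.00985 and 0.00238). Nnmt, nicotinamide N-methyltransferase, fell by 1.98 ± 0.36 at 24 h (0.0405) and 2.32 ± 0.36 at 48 h (0.0213); both calls were lost with the mouse number as a block (0.0566 and 0.0891).

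Acute phase genes were called mainly at 48 h. Of 33 tested, 1 rose at 24 h, 3 rose and 7 fell at 48 h, and none passed at 72 h; the 3 risers at 48 h were Cebpb, Mt1 and Mt2, a transcription factor and the metallothioneins. Apcs, serum amyloid P, had 9.15 and 9.48 at 3 h, 10.80 and 10.54 at 24 h, 8.63 and 8.79 at 48 h, and 8.61 and 8.42 at 72 h; it rose by 1.35 ± 0.17 at 24 h (adjusted p = 0.011) and fell by 2.15 ± 0.17 from 24 to 72 h (0.00345). Hamp, the iron hormone hepcidin, fell by 1.40 ± 0.23 at 48 h (0.0231), and Lcn2, which binds siderophores, fell by 3.05 ± 0.52 from 24 to 72 h (0.0435); both calls were lost with the mouse number as a block (0.101 and 0.0645). Of 30 immediate early genes 1 rose and 1 fell at 24 h, 1 rose and 2 fell at 48 h, and 1 rose and 1 fell at 72 h. Btg1, an antiproliferative coregulator, was the riser at each time, by 1.24 ± 0.16 at 24 h (0.0109); its 72 h sign turned with 75th percentile scaling (-0.30) and median scaling (-1.32), and its 48 h call was lost with the mouse number as a block (0.0863). Atf3, a stress-response factor, had 8.09 and 8.92 at 3 h, 10.03 and 10.18 at 8 h and a mean of 6.94 at 72 h, where 1 of the 2 arrays was well above background, a fall of 1.57 ± 0.26 (0.043); its 8 h difference, 1.60 ± 0.26, did not pass (0.442). Among 30 amino acid and urea cycle genes none passed at 24 h, 1 rose and 3 fell at 48 h and 2 fell at 72 h. Asl, argininosuccinate lyase of the urea cycle, fell by 1.57 ± 0.28 at 48 h (0.0268) and 1.70 ± 0.28 at 72 h (0.0431). Of 22 growth hormone and IGF genes 1 fell at 24 h, 2 rose and 3 fell at 48 h, and 1 rose at 72 h. Igf1, the growth hormone target of liver, rose by 0.89 ± 0.15 at 48 h (0.0231; -0.43 on median scaling), and Igfals, which carries its product in blood, fell by 1.47 ± 0.27 (0.0268).

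Several genes outside the metabolic lists had their highest levels at 24 h. Nat8b-ps, an N-acetyltransferase pseudogene, had 8.27 and 8.59 at 3 h, 11.47 and 11.36 at 24 h and 8.60 to 9.46 on the 6 other arrays, a rise of 2.98 ± 0.20 (adjusted p = 0.00123). The probe named for Ren2, a second renin gene carried by some mouse strains, had 7.95 and 8.05 at 3 h, 10.43 and 10.82 at 24 h and at most 8.28 elsewhere (2.63 ± 0.35, 0.0124). Whether this signal came from Ren2, from Ren1 or from another transcript was not tested, so a rise of Ren2 itself is not shown. The class I histocompatibility gene Gm8909 rose by 2.27 ± 0.13 (0.000661). In the treated livers of 24 h the probes of Nat8b-ps, Ren2 and Gm8909 differed from 3 h by 0.39, 0.83 and 1.20. Fabp5, a fatty acid binding protein of epithelium and macrophages, and its copy Fabp5l2 rose by 2.74 ± 0.47 (0.0328) and 2.94 ± 0.43 (0.0204). Without mouse 2 or mouse 3 of 3 h the adjusted p was 0.186 and 0.156 for Fabp5, and 0.138 and 0.112 for Fabp5l2.

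Sprr1a, Lce1d and S100a9 also rose at 24 h. Sprr1a, a cornified envelope precursor, had 7.91 and 7.80 at 3 h, 10.52 and 10.35 at 24 h and 7.94 and 7.98 at 72 h (2.58 ± 0.11, adjusted p = 0.000183), with a smaller rise at 48 h (1.21 ± 0.11, 0.0111). Lce1d, which encodes a late cornified envelope protein, rose by 2.61 ± 0.16 (0.000768); it was well above background on both arrays of 24 h and on 1 of 2 at each other time. S100a9, a gene of neutrophils, had 8.11 and 7.61 at 3 h, 9.77 and 10.85 at 24 h and 7.69 and 7.83 at 72 h (2.45 ± 0.32, 0.0122). On the same 24 h arrays the treated livers held these 3 genes at higher Cy5 levels, 12.91 and 12.29 for Sprr1a, 12.00 and 11.69 for Lce1d, and 13.70 and 12.26 for S100a9, and their part in the Cy3 values was not tested. Of the 7 neutrophil markers tested 3 were well above background on all arrays, S100a9 was the 1 that passed, and the median of the list was 7.46 and 7.79 at 24 h against 7.23 to 7.65 on the others. In bulk liver, more cells of a type and more RNA per cell cannot be told apart. Of 10 stellate cell genes 2 rose at 48 h, Col3a1 by 1.63 ± 0.21 (0.0163) and Acta2 by 1.72 ± 0.34 (0.0318). Car3, the 1 of 5 fat tissue markers that passed, rose by 1.45 ± 0.17 at 48 h (0.0154) and 1.23 ± 0.17 at 72 h (0.0247), the latter -0.43 with 75th percentile scaling.

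Among called genes with a reference symbol above background at 3 or 72 h, the largest rises at 72 h came from probes holding dinucleotide repeats. Zfp663, Oprm1, Mcidas, Proser3 and Hexim2 led the rises at 72 h, by 2.90, 2.85, 2.83, 2.81 and 2.81, and the probe of each held an unbroken run of 9 to 17 CA units, as in that of Mcidas: CACACACACACACACACA. Zfp663 had 11.34 and 11.14 at 3 h, 12.84 and 13.52 at 24 h, 13.95 and 13.37 at 48 h, and 14.04 and 14.25 at 72 h. All 32 probes with a run of 8 or more units were higher at 72 than at 3 h, with 11, 30 and 30 called at 24, 48 and 72 h, and median differences of 1.51, 1.99 and 2.52. The 69 probes with a GT run of that length went the other way, with 26 called lower at 72 h and a median of -1.52. Both classes were noticed after their values were seen, so these counts are a description. The Cy5 channel of the same arrays had medians of 2.82 and -1.90 at 72 h. Hexim2 read by a different probe had -0.12, -0.10 and -0.11 at 24, 48 and 72 h. Without the repeat probes 23672 of 23729 genes were tested, and 83 passed at 72 h in place of 268. Calls of genes read by other probes were thus lost too. At 72 h fat oxidation genes then had 0 higher and 1 lower, and fatty acid synthesis genes 0 higher. Clock repressors had 1 lower and insulin, FOXO and autophagy genes 1 higher, while gluconeogenesis kept 1 higher.

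**Figure D5:**
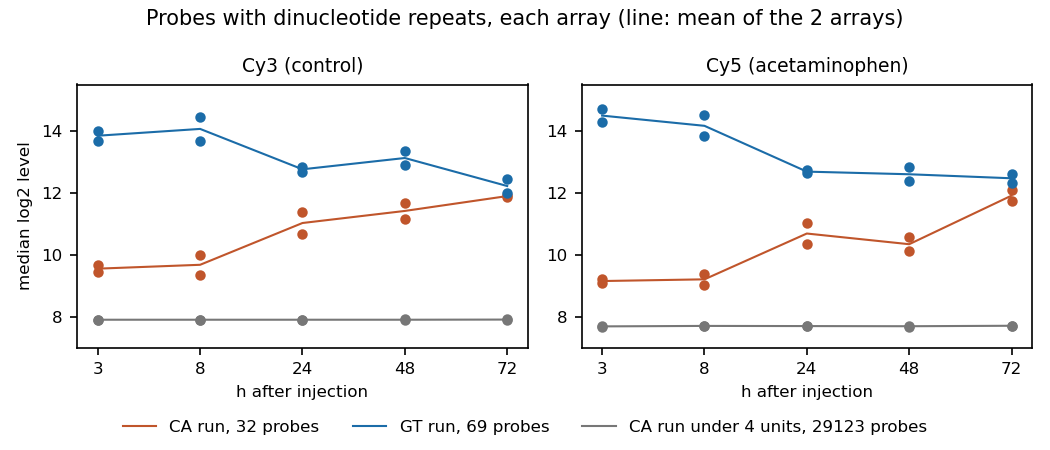
Median log2 level of probes with a CA run of 8 or more units, with a GT run of that length, and with a CA run under 4 units, on each array against hours after injection, for the control (Cy3) and the treated (Cy5) channel; points are arrays and lines join the means of the 2 arrays. The CA probes climbed and the GT probes declined in both channels; the level of the probes with short runs in Cy3 is held by the quantile scaling.

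Between 24 and 72 h, Lpin1 fell by 2.71 ± 0.38 (adjusted p = 0.0212) and Slco1a1 by 1.77 ± 0.21 (0.0119). The means compared hold no 3 h array, though the 3 h arrays enter the spread of the fit. Lifr, the receptor of leukemia inhibitory factor, had 11.16 and 10.82 at 24 h and 12.01 and 11.93 at 72 h (0.97 ± 0.15, 0.0277), a sign that turned with 75th percentile scaling (-0.26). Gpt2, a mitochondrial alanine aminotransferase, and Got1, the cytosolic aspartate aminotransferase, fell by 1.31 ± 0.20 (0.0286) and 1.49 ± 0.26 (0.0483), the latter lost with the mouse number as a block (0.0583). Sik1, a kinase that restrains CREB coactivators, fell by 1.93 ± 0.23 (0.0126). Without either 3 h array, the calls from 24 to 72 h of Lpin1, Lifr, Gpt2 and Got1 were lost. So were those of Thrsp, Pgd, Pnpla3, Cpt2, Cyp2c37 and Lcn2 given above. The calls of Slco1a1, Sik1, Ciart, Noct, Usp2, Apcs, Dio1 and Cyp2c23 over that interval were kept.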

How the data were processed

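Each array file held the spot intensities of both dyes as deposited, extracted from the scans with Agilent Feature Extraction 10.7.3.1 per the file headers, with probe coordinates on mm9. Mean Cy3 intensity was corrected for the median local background with normexp (offset 50) and quantile scaled over the 10 Cy3 channels. The 1377 control spots and 1585 outlier spots were left out, and spots of a probe were averaged. Probes well above background on both arrays of at least 1 time were kept (29265 of 39429), and the brightest kept probe stood for a gene (23729 genes). Genes were named from the RefSeq table by accession (26581 probes), symbol (2597) or older symbol (492), and otherwise kept the file's name (9759). limma 3.58.1 under R 4.3.3 fitted 5 time means (5 residual degrees of freedom, 2.85 prior), with Benjamini-Hochberg adjustment at 0.05. The deposited value table holds ratios of both dyes and was not used.

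On simulated data for 24 h against 3 h over 23729 genes, the fit recovered 53 of 100 log2 changes of 1 and 86 of 100 of 2, with 9 false calls. The simulated noise was independent between arrays, whereas real arrays of a slide were correlated (0.581). These figures therefore describe the simulated setting only. Arrays sharing a mouse number at 3, 8, 24 and 72 h, and with it a scan day, had correlated deviations from their time means (0.20 to 0.47 over 6 pairs). Matched by scan day over all 5 times, the range was 0.19 to 0.63 over 10 pairs. The number and the scan day cannot be told apart at 3, 8, 24 and 72 h, and each was tried as a block. With 2 arrays a time, their number limits the precision.

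The gene lists and comparisons were chosen with earlier results of these data known. Named genes were, for each difference from 3 h, the 5 largest called rises and falls whose arrays did not overlap those of 3 h; up to 4 members of each list past the test over all times, or the 2 largest differences; all core clock genes; the 8 smallest p-values over all times; and the 3 largest called changes each way from 24 to 72 h. Further genes, and the repeat probes, were chosen after their values were seen. Other scalings, background settings, filters, blocks and left-out arrays were tried as alternatives. Some genes are not reported here.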

Additional observations from a re-analysis of the deposited data

Results flagged for a closer look

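The treated channel, which entered none of the main comparisons of the control livers, held signals of the same genes on the same arrays. At 24 h against 3 h the Cy5 difference of S100a9 was 5.25, beside 2.45 in Cy3. For Sprr1a it was 5.05 beside 2.58, and for Lce1d 4.88 beside 2.61. Probes with a CA run of 8 or more units had a median Cy5 difference of 2.82 at 72 h against 3 h, beside 2.52 in Cy3. The part of the treated channel in the control values was not tested.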

How the results depend on the processing

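Counts of genes changed are given as 24 h, 48 h and 72 h against 3 h, 72 h against 24 h, and over time. With 75th percentile scaling they were 2, 0, 0, 1 and 0, with or without scan date as a block, and with median scaling 0 in all 5. Cyclic loess scaling, chosen after seeing the data, gave 262, 845, 0, 22 and 35. The software's processed signal gave 158, 0, 10, 84 and 53, and slide as a fixed block 182, 0, 0, 71 and 10. Slide as a random block (correlation 0.581) gave 1680, 2154, 815, 964 and 2263, with 10 at 8 h. Scan date as a block gave 818, 2727 and 892 at 24, 48 and 72 h and 1307 over time. The mouse number as a replicate block gave 697, 188 and 883; of 201 calls of single genes it kept 141 and turned no direction. A normexp offset of 0 gave 278, 526 and 82, and 280 over time; no background correction gave 835 at 48 h, 105 at 72 h and 333 over time. No filter on dim probes gave 148 at 72 h and 354 over time, and a filter over all 10 arrays 483 at 72 h. At 72 h and over time, loess with Aquantile gave 801 and 909, and the separate-channel fit 785 and 1054. Without the repeat probes, also left out after seeing the data, 83 passed at 72 h. Leaving out each array in turn gave 0 to 1 at 8 h, 58 to 361 at 24 h, 0 to 1225 at 48 h, 1 to 316 at 72 h, 60 to 189 from 24 to 72 h and 75 to 563 over time. With median scaling the median difference of all genes was -0.26, -0.17 and -0.40 at 24, 48 and 72 h, and 18 of the 201 calls turned. At 72 h these were G6pc -0.98, Angptl4 -0.29, Mlxipl -1.49, Ulk1 -1.42, Gabarapl1 -1.57, Btg1 -1.32, Lifr -1.66, Car3 -1.45 and Cyp2c23 -1.34. At 48 h they were Pgd -0.03, Cebpb -0.16, Gys2 -0.15 and Igf1 -0.43, and at 24 h Abcg5 -0.01. From 24 to 72 h they were Syvn1 -0.87, Cyp2c37 -0.34, Cpt2 -0.83 and Lifr -0.61. With 75th percentile scaling 10 turned: at 72 h Mlxipl -0.48, Ulk1 -0.41, Gabarapl1 -0.55, Btg1 -0.30, Lifr -0.65, Car3 -0.43 and Cyp2c23 -0.33, and from 24 to 72 h Syvn1 -0.52, Cpt2 -0.47 and Lifr -0.26. Hexim2 turned without the repeat probes (-0.12, -0.10 and -0.11). The cause of these moves was not tested.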
